A study of Mus musculus with 6 samples.

Results

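The 10 genes described here are members of the AP-1 transcription factor family and other immediate early genes, namely Fos, Fosb, Fosl2, Jun, Junb, Jund, Atf3, Batf, Ier2 and Ier3. They were taken by symbol from the 41386 genes listed in an expression table of mouse thymocytes, and each symbol matched 1 gene. Expression was measured by sequencing of total RNA after ribosomal RNA depletion, in 6 libraries. The cells came from adult C57BL/6 mice of the genotype Gata3(g/+), in which 1 Gata3 allele carries a GFP reporter over a wild-type allele, so that GFP-positive and GFP-negative cells share that genotype. DN4 thymocytes, the last of the double-negative stages before CD4 and CD8 appear at the surface, were sorted into GFP-positive cells (3 libraries) and GFP-negative cells (3 libraries). The series as a whole concerns GATA3 abundance and allelic exclusion of the T cell receptor beta locus, and the sort sets cells with GFP beside cells without it. The labels do not say how the reporter allele was built, whether animals were pooled or whether each library of a group had its own animal. The p-values therefore measure how far these libraries spread, which may be technical in part. Values of a group are given in the order of its libraries 1, 2 and 3.

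AP-1 is a dimer of basic leucine zipper (bZIP) proteins. Jun proteins pair with one another or with Fos proteins and bind short palindromic sites, while Fos proteins do not form stable dimers with themselves. Batf and Atf3 are smaller bZIP proteins that pair with Jun proteins, and BATF-JUN dimers act together with IRF4 at composite sites in T cells. Most of these genes are immediate early genes: their mRNA appears within minutes of a stimulus without new protein synthesis, through serum response factor (SRF), its ternary complex partners and factors of the CREB and ATF type that are already in the cell, and it decays quickly. In thymocytes, AP-1 genes are known targets of signalling through the pre-TCR and the TCR, downstream of Ras and the MAP kinases. Cell handling, such as dissociation and warming, is also known to induce them.

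The promoters of the members that varied most between libraries are shown to set out the sites that are commonly searched for in such genes. RefSeq (build GRCm38.p6) held a promoter for 9 of the 10 members, all except Ier2. The 250 bases before the start annotated in RefSeq are given 5′ to 3′ on the gene's strand, with matches in capitals. The motifs were searched on both strands. TGACG is the core of the cAMP response element. The full element, TGACGTCA, contains that core. The AP-1 site was searched as TGANTCA. The other motifs were TATAAA and the CArG box bound by SRF. The windows are chr12:85473640-85473889 (plus strand) for Fos, chr7:19310046-19310295 (minus strand) for Fosb, chr4:95052223-95052472 (minus strand) for Jun and chr8:84978749-84978998 (minus strand) for Junb.
Fos: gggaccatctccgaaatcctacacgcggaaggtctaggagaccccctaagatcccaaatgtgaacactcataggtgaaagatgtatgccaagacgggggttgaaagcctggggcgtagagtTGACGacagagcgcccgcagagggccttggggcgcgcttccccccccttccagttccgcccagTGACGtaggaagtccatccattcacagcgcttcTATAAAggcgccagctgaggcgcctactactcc
Fosb: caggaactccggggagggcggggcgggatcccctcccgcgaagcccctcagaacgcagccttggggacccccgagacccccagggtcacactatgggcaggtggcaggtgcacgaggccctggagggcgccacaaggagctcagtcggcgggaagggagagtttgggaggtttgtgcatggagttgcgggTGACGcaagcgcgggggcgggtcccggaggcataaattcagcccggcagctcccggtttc
Jun: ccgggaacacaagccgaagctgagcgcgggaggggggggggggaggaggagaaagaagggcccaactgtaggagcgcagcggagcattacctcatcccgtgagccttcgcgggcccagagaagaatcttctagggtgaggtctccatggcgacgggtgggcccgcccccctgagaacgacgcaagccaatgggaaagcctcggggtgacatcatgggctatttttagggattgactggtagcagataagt
Junb: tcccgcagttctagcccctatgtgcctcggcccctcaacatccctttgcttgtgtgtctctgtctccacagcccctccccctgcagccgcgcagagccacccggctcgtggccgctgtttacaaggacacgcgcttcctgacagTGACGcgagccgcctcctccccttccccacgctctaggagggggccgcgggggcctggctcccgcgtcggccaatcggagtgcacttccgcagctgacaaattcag

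In these letters TGACG began 129 and 66 bases before the start of Fos, 60 bases before that of Fosb and 106 bases before that of Junb. TATAAA began 33 bases before the start of Fos. Of the members not shown, Batf held TGACG 98 bases before its start, and Atf3 held its reverse complement CGTCA 7 bases before its start. No match to any of the 5 motifs was found in the windows of Jun, Jund, Fosl2 and Ier3, and TGACGTCA, TGANTCA and the CArG box matched in 0 of the 9 members' windows. Among all 32851 RefSeq windows of the same length, 17.8% held TGACG, 1.55% TGACGTCA, 6.75% TGANTCA, 12.4% TATAAA and 1.47% the CArG box. The RefSeq start of some members is not the gene end given by GENCODE M21. The Jund window (chr8:70697489-70697738) ends well before the GENCODE start at 70698949. Those of Fosl2 (chr5:32136222-32136471) and Atf3 (chr1:191183334-191183583) lie inside the GENCODE genes. A match is a description of the letters, and a missing match says only that they are not in this window.

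Read totals of the libraries were not among the sources used here, so no counting interval can be set on the values. Expression is in FPKM, fragments scaled to gene length and to the size of the library. A rough relative depth, read from the steps between the lowest values, ranged over 0.863 to 1.28 of GFP-negative library 1. It rests on 1.88% to 5.96% of the low genes, the least for GFP-positive library 3. The steps also carry the scaling of FPKM, so this range does not establish the depth of the libraries. Between 10793 and 11632 genes per library reached 1 FPKM. Gata3 had 64.2, 62.7 and 63.0 FPKM in GFP-positive libraries, against 20.8, 24.3 and 22.3 FPKM in GFP-negative libraries, so it was higher where GFP was present. Library 1 of each group stood apart from libraries 2 and 3 on the second principal component (15.5% of the variance). Library 1 also held RNA of Y-linked genes: Ddx3y had 6.67, 0 and 0 FPKM in GFP-positive libraries, against 7.89, 0 and 0 FPKM in GFP-negative libraries. Kdm5d had 4.08 FPKM in GFP-positive library 1 and 4.94 FPKM in GFP-negative library 1, against at most 0.247 FPKM in the other 4 libraries. Xist had 107, 236 and 231 FPKM in GFP-positive libraries and 162, 198 and 262 FPKM in GFP-negative libraries. These genes were chosen after their values were seen, the labels give no sex, and sex and any other difference between library 1 and the other libraries cannot be told apart. The authors deposited a further table computed without library 1 of either group, and the group comparison of the tested members is given below with and without library 1. Genes that overlap a member and the genes of other lists are given over 6 libraries.

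Fos and the 3 Jun genes were lower in GFP-positive than in GFP-negative cells, with mean levels 0.225 to 0.406 times as high, whereas the levels of Ier2, Batf and Fosb overlapped widely between the groups. Jund passed the test over all 6 libraries. Fos, Jun and Junb did not pass over all 6, and passed in fits that allowed for library 1 or left it out of both groups. Library 1 was singled out with earlier results of these data known, and these genes were highest in it in both groups. Those fits are therefore no independent support. Fosl2, Ier3 and Atf3 lay below 1 FPKM and were not tested, so 7 of the 10 members entered the tests. The test was limma on log2(FPKM + 0.5) over 11465 genes with a mean of at least 1 FPKM and Benjamini-Hochberg adjustment, and fold changes are GFP-positive over GFP-negative on that scale, on which changes of low genes come out too small.

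**Figure D1:**
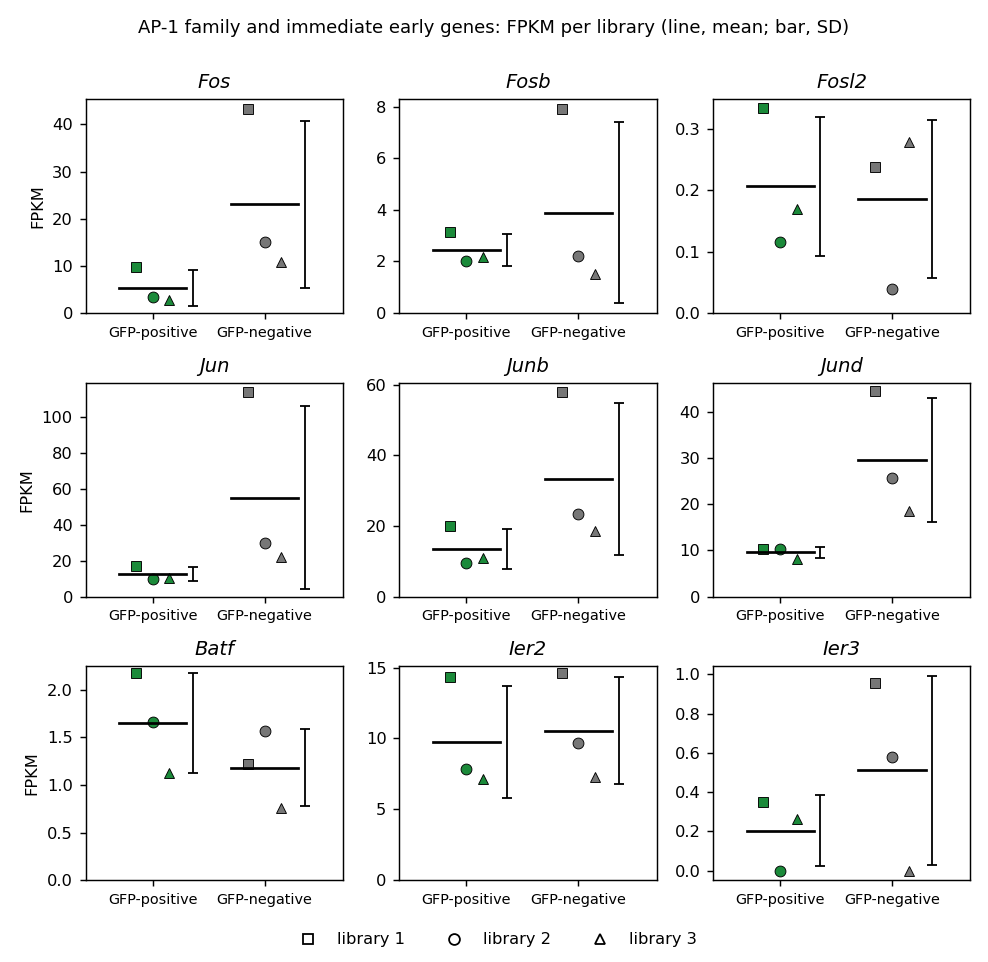
FPKM (vertical axis, from 0, scaled per gene) of the 9 members with any value above 0, in GFP-positive cells (green, left) and GFP-negative cells (grey, right). Squares, circles and triangles are libraries 1, 2 and 3, lines are means and bars are SDs over 3 libraries. For Jun, GFP-negative library 1 stands at 114 FPKM and the GFP-positive libraries at 10.03 to 17.0 FPKM.

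Jund encodes the Jun protein that many resting cells already hold, and its gene is a single exon on chromosome 8 (70698949 to 70700616, plus strand, mm10, GENCODE M21). Its level was 10.2, 10.3 and 8.15 FPKM in GFP-positive libraries, against 44.4, 25.6 and 18.5 FPKM in GFP-negative libraries. The groups did not overlap, as was so for 63.8% of all genes tested (GFP-positive lower in 35.1%), and the GFP-negative libraries were the more spread. The means were 9.57 ± 1.23 FPKM in GFP-positive cells and 29.5 ± 13.4 FPKM in GFP-negative cells (SD, n = 3 each). Jund fell in GFP-positive cells by 1.49 on the log2 scale (SE 0.29, limma adjusted p = 0.00357). It was the 1 member of the 7 tested that was called at an adjusted p below 0.05, against 54.2% of all 11465 genes tested (24.4% higher, 29.8% lower). With quantile normalization the split over all genes turned round, to 3494 higher and 2846 lower calls against 2797 and 3419, and the median of all genes moved by 0.13, while Jund kept its call (-1.41, limma adjusted p = 0.01003). In bulk samples such as these, fewer cells of a type and less RNA per cell cannot be told apart.

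A second gene lies within Jund on the other strand, the antisense gene Gm11175 (chromosome 8, 70699162 to 70700080). It had 42.9, 57.8 and 61.0 FPKM in GFP-positive libraries, against 255, 131 and 108 FPKM in GFP-negative libraries (log2 fold change -1.52, SE 0.32, limma adjusted p = 0.00625). The sources used here do not state whether counting used the strand, so reads of Jund and Gm11175 cannot be told apart.

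Jun encodes c-Jun, the Jun protein with the strongest activity in AP-1 dimers, from a single exon on chromosome 4 (95049034 to 95052222, minus strand). Its level was 17.0, 10.03 and 10.3 FPKM in GFP-positive libraries, against 114, 29.7 and 22.2 FPKM in GFP-negative libraries. The groups did not overlap, and GFP-negative library 1 was far above every other library. The means were 12.4 ± 3.95 FPKM in GFP-positive cells and 55.2 ± 50.8 FPKM in GFP-negative cells (SD, n = 3 each). The log2 fold change was -1.77 (SE 0.71) and did not pass the test over 6 libraries (limma adjusted p = 0.0958). Without GFP-negative library 1 it was -1.06 and passed (limma adjusted p = 0.01002). Without any other single library Jun did not pass (limma adjusted p = 0.0807 to 0.237). Junos, an antisense gene that overlaps Jun, had 0.842, 0.638 and 0.686 FPKM in GFP-positive libraries, against 10.7, 3.26 and 1.44 FPKM in GFP-negative libraries (log2 fold change -1.83, limma adjusted p = 0.0281).

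Junb, whose protein is a weaker activator that can restrain c-Jun, lies on chromosome 8 (84974484 to 84978718, minus strand). Its level was 20.2, 9.65 and 10.9 FPKM in GFP-positive libraries, against 58.1, 23.4 and 18.7 FPKM in GFP-negative libraries. The groups overlapped in 1 place, since GFP-positive library 1 was above GFP-negative library 3. The means were 13.6 ± 5.74 FPKM in GFP-positive cells and 33.4 ± 21.5 FPKM in GFP-negative cells (SD, n = 3 each), and the log2 fold change of -1.16 (SE 0.52) did not pass (limma adjusted p = 0.114). Prdx2, which overlaps the end of Junb on the other strand, went the other way, at 76.2 ± 4.80 FPKM in GFP-positive cells and 54.0 ± 8.72 FPKM in GFP-negative cells (SD, n = 3 each).

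Summed over the family, Jun, Junb and Jund made up 47.4, 30.0 and 29.3 FPKM in GFP-positive libraries, against 216, 78.7 and 59.3 FPKM in GFP-negative libraries. Jun took 35.8%, 33.4% and 35.0% of that sum in GFP-positive libraries and 52.6%, 37.7% and 37.4% in GFP-negative libraries. The Jun share was highest in GFP-negative library 1, and the sums of the groups did not overlap.

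Fos encodes c-Fos, the partner of Jun proteins in the classical AP-1 dimer, and lies on chromosome 12 (85473890 to 85477273, plus strand). It had 9.68, 3.46 and 2.81 FPKM in GFP-positive libraries, against 43.3, 15.1 and 10.8 FPKM in GFP-negative libraries. The groups did not overlap, but GFP-positive library 1 came close to GFP-negative library 3. The means were 5.32 ± 3.80 FPKM in GFP-positive cells and 23.1 ± 17.7 FPKM in GFP-negative cells (SD, n = 3 each), so that the SD in each group was a large part of its mean. The log2 fold change was -1.95 (SE 0.71) and missed the threshold over 6 libraries (limma adjusted p = 0.0739). Without GFP-positive library 1 it was -2.45 and passed (limma adjusted p = 0.0320). Without any other single library Fos did not pass (limma adjusted p = 0.0840 to 0.2055).

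Fosb encodes a close relative of c-Fos that also pairs with Jun proteins, and lies on chromosome 7 (19302696 to 19310051, minus strand). Its level was 3.16, 2.002 and 2.17 FPKM in GFP-positive libraries, against 7.93, 2.22 and 1.53 FPKM in GFP-negative libraries. Only GFP-negative library 1 stood out, and the other 5 libraries overlapped. The log2 fold change was -0.31 (SE 0.50, limma adjusted p = 0.626), and it turned to 0.14 in libraries 2 and 3 alone and to 0.30 without GFP-negative library 1. Fosl2, which encodes the Fos family protein Fra-2, was at 0.333, 0.116 and 0.170 FPKM in GFP-positive libraries and 0.238, 0.0384 and 0.279 FPKM in GFP-negative libraries. It was too low to test. Fos made up 73.5%, 62.0% and 54.6% of the summed Fos, Fosb and Fosl2 level in GFP-positive libraries, against 84.1%, 87.0% and 85.6% in GFP-negative libraries, without overlap.

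Batf, on chromosome 12 (85686669 to 85709087, plus strand), encodes a partner of Jun proteins that lacks a transactivation domain. It had 2.17, 1.66 and 1.13 FPKM in GFP-positive libraries, against 1.22, 1.57 and 0.762 FPKM in GFP-negative libraries. The groups overlapped, and the log2 fold change was 0.36 (SE 0.30, limma adjusted p = 0.340). Atf3, a stress-induced bZIP gene on chromosome 1 (191170296 to 191218039, minus strand), was listed at 0 in all 6 libraries. A 0 in such a table can also be a failed estimate, though the authors' status for Atf3 was NOTEST, as for Fosl2 and Ier3.

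Ier2, a single-exon immediate early gene on chromosome 8 (84661331 to 84662852, minus strand) whose protein is nuclear, had 14.3, 7.82 and 7.13 FPKM in GFP-positive libraries, against 14.6, 9.71 and 7.27 FPKM in GFP-negative libraries. Library 1 was the highest in each group and the groups overlapped throughout. The means were 9.76 ± 3.97 FPKM in GFP-positive cells and 10.5 ± 3.76 FPKM in GFP-negative cells (SD, n = 3 each; log2 fold change -0.12, SE 0.31, limma adjusted p = 0.773). Ier3, an immediate early gene on chromosome 17 (35821684 to 35822923, plus strand) linked to the control of apoptosis, had 0.351, 0 and 0.262 FPKM in GFP-positive libraries and 0.956, 0.577 and 0 FPKM in GFP-negative libraries. It was too low to test.

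Since library 1 stood apart, the group difference was also fitted with a term for library 1. Fos, Jun, Junb and Jund then fell in GFP-positive cells, 4 of the 7 tested members, against 57.3% of all genes called in either direction and 31.1% called lower in that fit. Fos fell by 1.95 on the log2 scale (SE 0.16, limma adjusted p = 0.000128) and Jun by 1.77 (SE 0.30, limma adjusted p = 0.00394). Junb fell by 1.16 (SE 0.15, limma adjusted p = 0.000572) and Jund by 1.49 (SE 0.21, limma adjusted p = 0.000905). The sizes are those of the fit without the term. The SEs are smaller because the term takes up the spread of library 1, which was chosen with earlier results of these data known. Fosb, Ier2 and Batf did not pass in this fit (limma adjusted p = 0.401, 0.497 and 0.325).

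In libraries 2 and 3 alone the same 4 members fell, against 44.8% of all genes called and 23.6% called lower. Fos then stood at a mean of 3.13 FPKM in GFP-positive cells and 12.9 FPKM in GFP-negative cells and fell by 1.87 on the log2 scale (SE 0.21, limma adjusted p = 0.00215). Jun, at means of 10.1 FPKM in GFP-positive and 25.9 FPKM in GFP-negative cells, fell by 1.30 (SE 0.17, limma adjusted p = 0.00292). Junb fell by 0.99 (SE 0.16, limma adjusted p = 0.00496) and Jund by 1.20 (SE 0.20, limma adjusted p = 0.00559). Ier2 stood at -0.16 (SE 0.18, limma adjusted p = 0.503) and Batf at 0.22 (SE 0.38, limma adjusted p = 0.667), and neither passed. In the authors' table of these 4 libraries, normalized on its own, limma also called these 4, against 42.2% of all genes called and 23.3% called lower, with log2 fold changes of -1.94 for Fos, -1.37 for Jun, -1.14 for Junb and -1.30 for Jund.

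In the authors' deposited table of 6 libraries, Fos, Jun, Junb and Jund each had a q-value of 0.00019 and Fosb one of 0.00499, where 49.3% of the genes the authors tested had a q-value below 0.05. In the authors' deposited table of 4 libraries, Fos, Jun, Junb and Jund each had a q-value of 0.00034, against 34.9% of genes below 0.05, while Fosb had one of 0.920. Batf (0.283 and 0.859) and Ier2 (0.649 and 0.279) passed in neither of the authors' deposited tables.

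**Figure D2:**
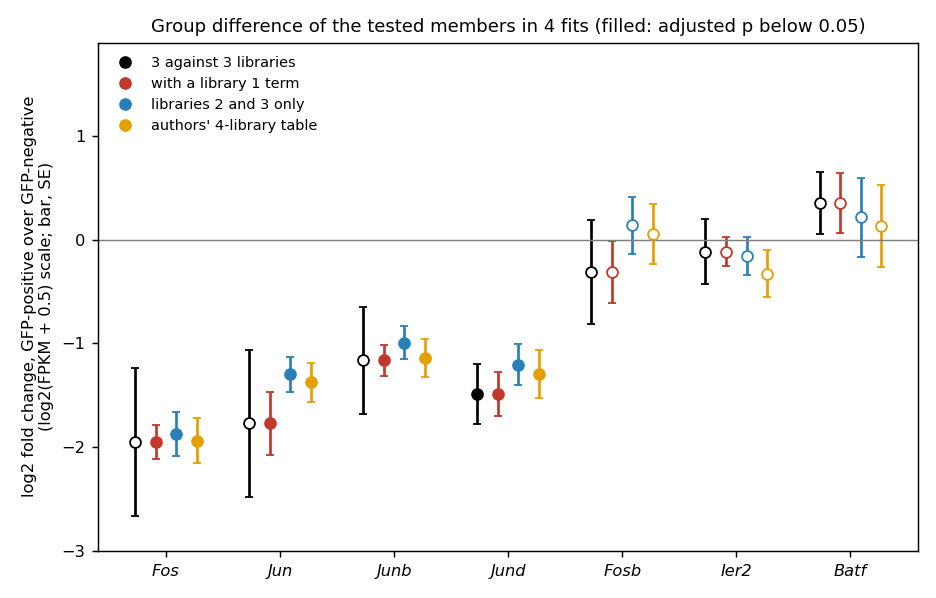
Log2 fold change of the 7 tested members, GFP-positive over GFP-negative (vertical axis, log2(FPKM + 0.5) scale), in 4 fits: 3 against 3 libraries (black), with a term for library 1 (red), libraries 2 and 3 only (blue) and the authors' table of 4 libraries (orange). Bars are SEs and filled points have an adjusted p below 0.05; Jund is filled in all 4 fits, Fos, Jun and Junb in 3, and Fosb, Ier2 and Batf in 0.

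Markers of double-positive thymocytes, the stage that follows DN4, moved with the groups. All 7 listed markers reached 1 FPKM, and their summed level was 327 to 366 FPKM in GFP-positive libraries, against 2186 to 3285 FPKM in GFP-negative libraries. Cd4 had 10.3, 6.82 and 6.13 FPKM in GFP-positive libraries and 242, 256 and 190 FPKM in GFP-negative libraries. The part of these cells in the lower Fos and Jun levels was not tested. Natural killer and innate markers were summed to 96.1 to 105 FPKM in GFP-positive libraries and 16.3 to 38.7 FPKM in GFP-negative libraries, nearly all of it Gzma. The gamma-delta T cell list, with 5 of 6 markers measured, summed to 70.3 to 79.2 FPKM in GFP-positive libraries and 121 to 142 FPKM in GFP-negative libraries. Tcrg-C1 went against that sum, at 37.2, 37.7 and 41.0 FPKM in GFP-positive libraries, against 6.06, 6.80 and 12.8 FPKM in GFP-negative libraries. Sox13, a gamma-delta lineage factor, had 7.97, 6.22 and 8.43 FPKM in GFP-positive libraries and 0.517, 0.459 and 1.43 FPKM in GFP-negative libraries. The part of these cells in the members' levels was not tested. Myeloid markers summed to at most 0.351 FPKM in GFP-positive libraries, against 2.08 to 2.64 FPKM in GFP-negative libraries. Itgam made up most of the GFP-negative sum, at 2.37, 1.75 and 1.52 FPKM, against 0.0515, 0 and 0.0282 FPKM in GFP-positive libraries. Cd14, S100a8, S100a9 and Ly6g were at 0 in all 6. B cell markers summed to 2.24 to 3.60 FPKM in GFP-positive and 7.10 to 9.71 FPKM in GFP-negative libraries, mostly Cd79b, with Pax5 at 0. Erythroid markers summed to 2.03 to 3.26 FPKM in GFP-positive and 1.77 to 2.85 FPKM in GFP-negative libraries, mostly Alas2, with Hba-a2 and Hbb-bt at 0.

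Library 1 held the highest level in both groups for Fos, Fosb, Jun, Junb and Ier2, 5 of the 7 tested members, where 7.45% of all genes tested did so and 28.7% had their lowest level in library 1 of both groups. Its level was at least 1.5 times the mean of libraries 2 and 3 in both groups for the same 5 members, where 2.01% of all genes reached this. For Fos the ratio was 3.09 in GFP-positive cells and 3.35 in GFP-negative cells, and for Ier2 it was 1.92 in GFP-positive and 1.72 in GFP-negative cells. For Junb it was 1.96 in GFP-positive and 2.77 in GFP-negative cells. For Jun it was 1.67 in GFP-positive and 4.38 in GFP-negative cells, and for Fosb 1.51 in GFP-positive and 4.23 in GFP-negative cells. Jund (1.11 in GFP-positive, 2.01 in GFP-negative cells) and Batf (1.56 in GFP-positive, 1.05 in GFP-negative cells) reached 1.5 times in a single group each.

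When library 1 was compared with libraries 2 and 3 in a fit that also held the groups, Fos rose in library 1 by 1.61 on the log2 scale (SE 0.17, limma adjusted p = 0.0237). Of the 11465 genes, 11 were called (0.0959%), 10 of them higher (0.0872%) and 1 lower (0.00872%), and 1441 genes (12.6%) had an unadjusted p below 0.05. Fos was the 1 member among the 10, which also held Tnfaip3, an early NF-kappaB target that restrains NF-kappaB signalling, the Y-linked genes Eif2s3y, Ddx3y, Uty and Kdm5d and mt-Ts1, Gm26493, Gm25517 and Gm27913, which are listed at 0 in the other 4 libraries. In library 1, mt-Ts1 had 659626 FPKM in GFP-positive and 555336 FPKM in GFP-negative cells. In the same order Gm26493 had 116 and 45.6 FPKM, Gm25517 39.9 and 34.2 FPKM and Gm27913 6.18 and 4.59 FPKM. Tnfaip3 had 19.2, 9.25 and 9.16 FPKM in GFP-positive libraries and 103, 43.8 and 38.1 FPKM in GFP-negative libraries, and it lost its call without GFP-positive library 2 or 3 or GFP-negative library 1 or 2. The call of Fos was lost without any 1 of GFP-positive libraries 1, 2 and 3 or GFP-negative library 1 (log2 fold changes of 1.49 to 1.73, limma adjusted p = 0.0609 to 0.232).

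The other members did not pass this comparison. For Junb the log2 fold change was 1.20 (SE 0.16, limma adjusted p = 0.0760), Jun one of 1.42 (SE 0.32, limma adjusted p = 0.313) and Fosb one of 1.17 (SE 0.32, limma adjusted p = 0.323). Ier2 stood at 0.83 (SE 0.15, limma adjusted p = 0.170), Jund at 0.58 (SE 0.23, limma adjusted p = 0.375) and Batf at 0.30 (SE 0.31, limma adjusted p = 0.686). Jun reached 2.12 and passed when GFP-positive library 1 was left out, so that GFP-negative library 1 alone stood for library 1 (limma adjusted p = 0.0147). The 13 heat shock genes tested had a median log2 fold change of -0.11 in library 1, against -0.10 over all genes. Hspe1 (-0.64), Hspd1 (-0.57) and Hsph1 (-0.47) had negative values. Hspa1a and Hspa1b, the highest of the list in library 1, had 4.88, 2.24 and 1.05 FPKM and 6.43, 5.10 and 2.01 FPKM in GFP-positive libraries. In GFP-negative libraries they had 1.95, 1.34 and 0.488 FPKM and 4.61, 2.13 and 0.985 FPKM. Neither passed (limma adjusted p = 0.345 and 0.348), and the part of cell handling in the members' levels was not tested.

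Whether library 1 differed from the others by the same amount in both groups was asked with a product term of group and library 1. Of the 7 tested members 0 passed in limma, against 0.314% of all genes tested (36 genes). Jun, Fosb and Jund, 3 of the 7, had an unadjusted p below 0.05, against 6.05% of all genes. The largest differences among the members were those of Jun, whose rise in library 1 was smaller in GFP-positive cells by 1.41 on the log2 scale (product term -1.41, SE 0.28, unadjusted p = 0.00248, limma adjusted p = 0.412), and of Fosb (-1.34, SE 0.41, limma adjusted p = 0.756). Jund stood at -0.86, Junb at -0.51, Fos at -0.23, Ier2 at 0.13 and Batf at 0.42. This fit has 2 residual degrees of freedom before moderation, so these values do not show that the differences were alike.

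**Figure D3:**
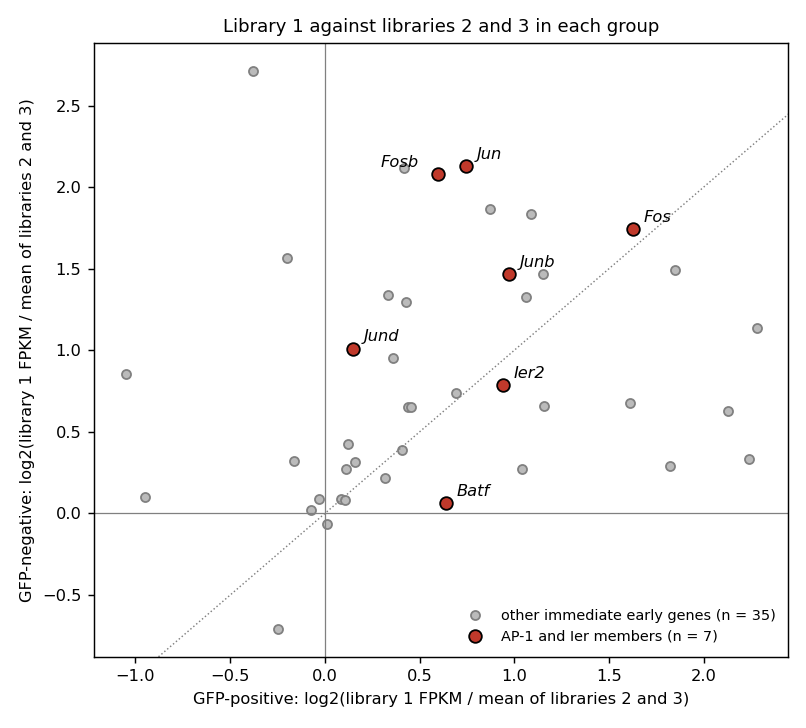
Log2 ratio of library 1 to the mean of libraries 2 and 3 in GFP-positive cells (horizontal axis) and in GFP-negative cells (vertical axis), for the 7 tested members (red) and 35 other immediate early genes (grey); the dotted line marks equal ratios. Fos and Ier2 lie near the line, while Jun and Fosb lie far above it, with ratios of 4.38 and 4.23 in GFP-negative cells.

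After the group means were taken out, Fos, Fosb, Jun and Junb varied together over the 6 libraries, with Pearson correlations of 0.896 to 0.997 in their 6 pairs. With Jund and Ier2 added, the 15 pairs lay between 0.771 and 0.997, and Batf correlated with the other 6 at 0.360 to 0.715. These correlations share the same 6 libraries and the difference of library 1, and they are given as a description. Over the 6 libraries the 5 genes most like Fos in log2(FPKM + 0.5) included Map1lc3a (r = 0.994), an autophagy gene, Il12rb1 (r = 0.994), a subunit of the interleukin 12 receptor, Cdk5r1 (r = 0.989), an activator of CDK5, and Gm16229 (r = 0.984). Of 11464 genes, 70 had a correlation with Fos above 0.95. The genes most like the mean of the 7 tested members were RP24-155O13.4 (r = 0.984), Vps45 (r = 0.984), Faf2 (r = 0.981), Eif4g2 (r = 0.976) and Acd (r = 0.969), and 11 of 11458 genes exceeded 0.95.

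Other genes of the pathway were counted from fixed lists in the comparison of GFP-positive with GFP-negative cells over 6 libraries, beside 2797 genes higher, 3419 lower and a median log2 fold change of -0.08 over all 11465 genes. Of 39 other immediate early genes, 35 were tested, 23 fell and 1 rose, with a median of -1.37. Btg1, an antiproliferative gene, fell by 3.02 (SE 0.32, limma adjusted p = 0.000376), at 14.5 ± 6.54 FPKM in GFP-positive cells and 117 ± 28.1 FPKM in GFP-negative cells (SD, n = 3 each). Dusp6, a phosphatase of ERK, fell by 2.73 (SE 0.53, limma adjusted p = 0.00509) and Socs3, an inhibitor of cytokine signalling, by 2.56 (SE 0.28, limma adjusted p = 0.000162). Myc, which drives growth, rose by 1.91 (SE 0.23, limma adjusted p = 0.000366), at 99.1 ± 9.62 FPKM in GFP-positive cells and 27.1 ± 9.95 FPKM in GFP-negative cells (SD, n = 3 each). Library 1 was the highest in both groups in 21 of these 35 genes, against 7.45% of all genes tested. It was at least 1.5 times the mean of libraries 2 and 3 in both groups in 10 of the 35, against 2.01% of all genes tested. Without GFP-positive library 2 the count of these genes that rose between the groups was 2.

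A list of SRF, its ternary complex factors Elk1, Elk3 and Elk4, its coactivators Mkl1 and Mkl2 and the MEF2 genes Mef2a, Mef2c and Mef2d held 9 genes, of which 8 were tested, 6 fell and 0 rose, with a median of -0.70. The 6 were Elk1, Elk3, Elk4, Mkl1, Mef2a and Mef2d. Srf itself had a log2 fold change of 0.07 and did not pass (limma adjusted p = 0.668). Elk3 stood at 5.24 ± 0.393 FPKM in GFP-positive cells and 18.8 ± 1.59 FPKM in GFP-negative cells (SD, n = 3 each; log2 fold change -1.75, limma adjusted p = 2.52e-05). Mef2d (-1.11) and Elk4 (-0.85) fell as well. Unlike Fos, Elk3 differed little between library 1 and the others (log2 fold change 0.02). In the MAP kinase cascade that leads to AP-1, 21 of 22 genes were tested, 9 fell and 3 rose, with a median of -0.11. Rasgrp1, which activates Ras below the TCR, fell by 1.59 (limma adjusted p = 5.02e-05), at 34.4 ± 4.65 FPKM in GFP-positive cells and 105 ± 11.8 FPKM in GFP-negative cells (SD, n = 3 each). Map3k1 (-0.77) and Map2k6 (-0.76) fell, and Mapk3 (0.79), Hras (0.55) and Map3k5 (0.53) rose. Without GFP-positive library 2 or GFP-negative library 1 the count that rose was 1.

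Of 24 other bZIP genes, 20 were tested, 6 fell and 2 rose, with a median of -0.15. Maff fell by 1.51 (SE 0.25, limma adjusted p = 0.00116), at 0.905, 0.604 and 1.01 FPKM in GFP-positive libraries, against 4.31, 2.72 and 2.998 FPKM in GFP-negative libraries. Crem (-1.06) fell, and Maf (1.19) and Atf1 (0.42) rose. The count that rose was 0 without GFP-positive library 2, and 1 without GFP-positive library 1 or 3 or GFP-negative library 2. Among heat shock genes, 13 of 14 were tested, 7 rose and 1 fell, with a median of 0.88. Hspd1 (1.54), Hspe1 (1.30) and Hsph1 (1.19), which are chaperones, were the 3 that rose most, and Dnajb4 (-1.07) fell; without GFP-negative library 3 the count that fell was 2. The median of the 7 tested members was -1.16. Each list is set beside the counts over all genes, and no more is read from it.

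**Figure D4:**
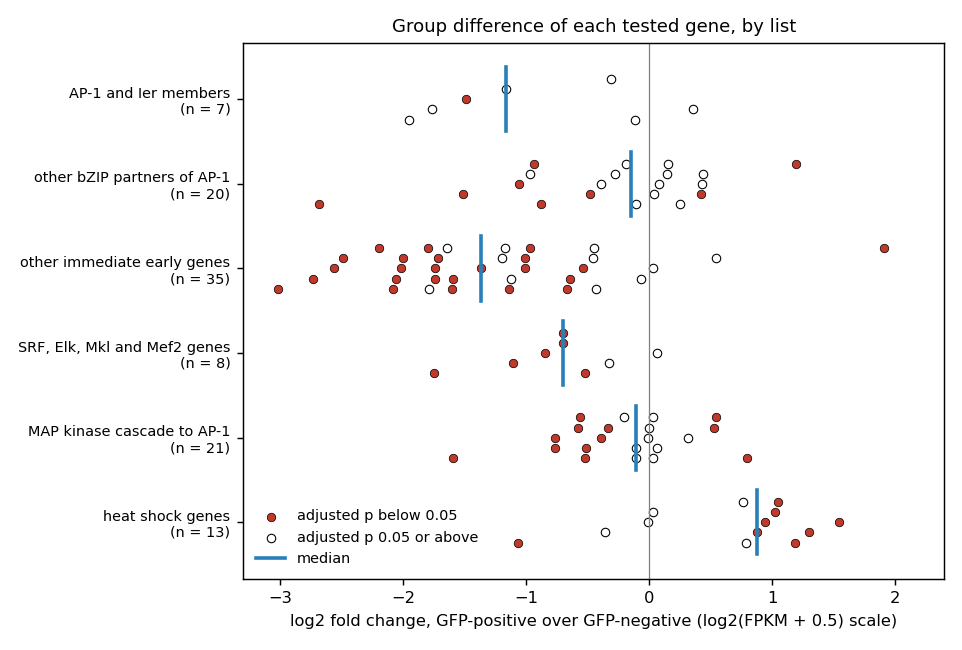
Log2 fold change, GFP-positive over GFP-negative (horizontal axis, log2(FPKM + 0.5) scale), of every tested gene in the members and in 5 other lists; each point is a gene, red where the adjusted p is below 0.05, and blue bars are medians. The median is -1.37 for the 35 other immediate early genes, 0.88 for the 13 heat shock genes and -1.16 for the 7 members.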

How the data were processed

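Per the labels' protocols, ribosomal RNA was removed from the total RNA of the sorted cells, and libraries were then made. Per the submitters' processing notes, TopHat2, Cuffdiff and the build mm10 were used. Versions, settings, the annotation release and any use of strand in counting: not given in the sources used here. Each library's FPKM values were deposited by the authors, once from a run over 6 libraries and once from 4, without library 1 of either group. Per the file headers, each run also gives every gene a p-value and a q-value. FPKM are not counts, so no count test was run.

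The groups were compared on log2(FPKM + 0.5) with limma 3.58.1 in R 4.3.3, with the trend and robust options of eBayes, in genes with a mean of at least 1 FPKM. Benjamini-Hochberg adjusted p-values were held to a threshold of 0.05. The 24 genes with the authors' status HIDATA were left out. Library 1 was compared with libraries 2 and 3 in a fit with the groups, and a product term asked whether it differed between groups. The procedure was tested on simulated data. Gene positions are from GENCODE M21 (mm10). Other settings tried were upper quartile scaling, quantile normalization, eBayes options off, a pseudocount of 0.1 or of 1, no filter or a minimum of 5 FPKM, genes the authors tested only, a library 1 term, a replicate block, the fits without library 1 and each library left out.

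The members, lists and tests were chosen with earlier results of these data known. All 10 members were named, with Gata3 as the check of the labels, up to 3 called genes per direction in each other list by size of the log2 fold change, and the 5 genes most like Fos and the members' mean by Pearson correlation. Other genes were named after their values were seen, and genes that overlap a member are among them. A few genes that this rule or the marker lists hold are not reported here.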

Additional observations from a re-analysis of the deposited data

How the results depend on the processing

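Jund kept its direction and its call under all alternatives run, at log2 fold changes of -1.77 to -1.15 in the fits that left out 1 library each. The count of members called lower in GFP-positive cells, 1 over 6 libraries, was 2 with no filter on low values, 3 with limma without trend and robust, 4 with the library 1 term, 4 in libraries 2 and 3 only, 4 in the authors' table of 4 libraries, and 1 to 2 when 1 library was left out. Over all genes the share called lower was 29.8% over 6 libraries, 17.9% with no filter and 29.2% with limma without trend and robust. It was 31.1% with the library 1 term, 23.6% in libraries 2 and 3 only and 23.3% in the authors' table of 4 libraries. When 1 library was left out it was 25.2% to 27.8%. The replicate numbers were checked as a pairing: the deviations of same-numbered libraries correlated at 0.0940, -0.0209 and 0.0610, under 0.1 throughout. The numbers were therefore not taken to pair the libraries in the main fit. Low correlations over all genes cannot exclude a pairing, and the value of the library 1 pair (0.0940) was the highest of any pair. Library 1 of both groups also shares the Y-linked RNA and the second principal component. GFP-positive library 2 correlated best with GFP-negative library 3 (0.0652). With the replicate block 4 members were called lower, Fos, Jun, Junb and Jund, against 55.7% of all genes called and 30.2% called lower. For Fos the limma adjusted p was 0.0739 without the block and 0.000245 with it.

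The count of members called higher in library 1, 1 in the fit reported, was 0 with no filter and with limma without trend and robust, 2 with quantile normalization and with upper quartile scaling (Fos and Junb), and 0 to 1 when 1 library was left out. Over all genes the share called higher in library 1 was 0.0872% in the fit reported and with limma without trend and robust. It was 0.0459% with no filter and 0.105% with quantile normalization and with upper quartile scaling. Fosb turned to a positive group difference in libraries 2 and 3 only (0.14) and in the table of 4 libraries (0.054), and it ranged over -0.72 to 0.30 when 1 library was left out, being positive without GFP-negative library 1. Ier2 ranged over -0.42 to 0.14 when 1 library was left out, being above 0 without GFP-positive library 2 (0.00090), GFP-positive library 3 (0.06) or GFP-negative library 1 (0.14). The cause of these changes was not tested.

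In the other lists, the bZIP genes called higher (2) were 1 at a minimum of 5 FPKM, 0 in libraries 2 and 3 only and 0 to 2 when 1 library was left out, and the MAP kinase genes called higher (3) were 1 in libraries 2 and 3 only and 1 to 3 when 1 library was left out. The replicate block gave 2 immediate early genes called higher and 2 heat shock genes called lower, in place of 1 each, and leaving out 1 library gave 1 to 2 of either. The 1 immediate early gene called higher in library 1 became 0 with no filter and with limma without trend and robust, and 0 to 1 when 1 library was left out. The other counts of the lists stayed within 1.5 times. With 3 libraries a group and no read totals, small differences in members at a few FPKM may be missed.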
